A study of Rattus norvegicus with 2 samples.

Results

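The potassium channel genes of the rat orbitofrontal cortex were taken as every gene whose symbol starts with Kcn and that had at least 100 UMIs (unique molecular identifiers, each counted as 1 RNA molecule) summed over both libraries. Of 25399 genes in the deposited gene tables, 92 carried such a symbol and 70 of them reached the minimum. Kcnk18, a 2-pore channel, lay just inside it with 111 UMIs, and Kcnj8, the pore of a vascular ATP-sensitive channel, just outside with 97. The 22 genes below the minimum included Kcnj16, a partner of Kcnj10 in glial inward rectifiers, with 5 UMIs. The symbols Kcnd2 and Kcnb2 were not among the 92 in the deposited gene tables, so neither was analysed here.

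Potassium channels let potassium leave the cell and so set the resting potential, end the action potential and limit repetitive firing. Voltage-gated Kv channels are tetramers of pore-forming alpha subunits, joined by silent alpha subunits that do not open on their own and by auxiliary proteins such as KChIPs (Kcnip genes) and Kv beta subunits (Kcnab genes). Kv7 channels carry the M-current that acetylcholine closes, calcium- and sodium-activated channels respond to activity, inward rectifiers hold the membrane near rest or open on G-protein signals, and K2P channels leak. In cortex, fast-spiking parvalbumin interneurons are known for Kv3 channels, and glia for inward rectifiers that take up potassium. The 70 genes held 12 Kv1 to Kv4 alpha subunits, 5 Kv7 subunits, 8 of the eag, erg and elk group, 9 silent subunits, 7 calcium- or sodium-activated subunits, 9 inward rectifiers, 8 K2P channels and 12 auxiliary subunits.

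The promoters of 4 members are shown because these genes share a cell type: Kcnc2 and Kcns3 both had their highest interneuron level in the Pvalb subclass, and Kcnk13 and Kcnj5 both had their highest level in microglia. Each is the RefSeq sequence of build GRCr8 from 250 bases before to 50 bases after the annotated start, in lower case with motif matches in capitals.
Kcnc2, chr7:49587364-49587663, plus strand: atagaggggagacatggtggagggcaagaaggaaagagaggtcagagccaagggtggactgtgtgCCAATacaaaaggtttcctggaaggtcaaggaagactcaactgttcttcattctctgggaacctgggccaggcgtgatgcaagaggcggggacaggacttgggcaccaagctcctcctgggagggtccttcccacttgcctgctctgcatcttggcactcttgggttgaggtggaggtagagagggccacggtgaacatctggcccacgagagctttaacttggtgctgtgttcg
Kcns3, chr6:39584056-39584355, minus strand: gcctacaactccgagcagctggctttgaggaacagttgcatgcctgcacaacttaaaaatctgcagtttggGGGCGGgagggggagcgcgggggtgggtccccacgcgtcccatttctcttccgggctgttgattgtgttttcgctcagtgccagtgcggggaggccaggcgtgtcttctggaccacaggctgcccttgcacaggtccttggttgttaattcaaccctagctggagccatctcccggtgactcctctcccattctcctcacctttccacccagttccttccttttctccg
Kcnk13, chr6:124971559-124971858, plus strand: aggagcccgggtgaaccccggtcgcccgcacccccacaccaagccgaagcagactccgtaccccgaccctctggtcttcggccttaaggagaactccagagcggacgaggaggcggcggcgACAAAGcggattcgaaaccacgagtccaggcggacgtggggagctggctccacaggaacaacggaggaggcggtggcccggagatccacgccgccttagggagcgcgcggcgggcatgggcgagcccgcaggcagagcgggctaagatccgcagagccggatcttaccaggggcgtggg
Kcnj5, chr8:39011047-39011346, minus strand: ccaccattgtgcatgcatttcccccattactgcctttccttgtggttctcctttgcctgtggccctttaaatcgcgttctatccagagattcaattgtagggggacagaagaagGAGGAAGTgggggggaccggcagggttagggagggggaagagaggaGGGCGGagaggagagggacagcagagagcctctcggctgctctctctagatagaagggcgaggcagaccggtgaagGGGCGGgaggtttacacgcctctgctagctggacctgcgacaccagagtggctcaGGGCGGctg
Each motif was searched on both strands. The core promoter motifs were TATAAA, where the TATA-binding protein sits, and CCAAT, bound by NF-Y. Sp1 binds GGGCGG. The response element of cyclic AMP is TGACGTCA. Homeodomain factors read TAATTA. SOX factors read ACAAAG. The myeloid factor PU.1 reads GAGGAAGT. Capitals mark CCAAT in Kcnc2, GGGCGG in Kcns3, ACAAAG in Kcnk13, and 3 GGGCGG matches and GAGGAAGT in Kcnj5. GAGGAAGT stood in 2.44% of all 27457 promoters and in 1 of the 45 members with a promoter in the RefSeq table (2.22%), Kcnj5. GGGCGG stood in 34.9% of all promoters and 57.8% of the members' promoters, and CCAAT in 37.7% and 24.4%. ACAAAG stood in 18.3% and 15.6%. TATAAA stood in 14.3% of all promoters and in 1 member, Kcnj13 (2.22%). TGACGTCA, in 1.91% of all promoters, and TAATTA, in 5.35%, matched 0 of the 45 windows. The members' promoters had a median GC content of 65.7% and 18 CpG sites, against 52.3% and 7 over all promoters. These matches describe letters only.

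Nuclei came from 8-week-old male Sprague-Dawley rats given methamphetamine (METH), a psychostimulant that releases dopamine, at 1 mg/kg by intraperitoneal injection for 7 days, or saline in the same way, with pentobarbital anaesthesia at the end in both groups. Orbitofrontal cortex, a prefrontal area involved in valuing outcomes, was taken from 4 animals per group, and 1 single-nucleus library was made per group. The animals of a group could not be told apart, and no source used here gives the interval from the last injection. There are no replicates, so no test was made, no p-value is given, and each difference below describes these 2 libraries.

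The METH library held 5543 barcodes and 44969322 UMIs, with a median of 6401 UMIs per nucleus, and the saline library 6969 barcodes and 42221257 UMIs, with a median of 4992. Potassium channel genes made up 1.05% of all UMIs in METH and 1.09% in saline. The libraries shared 9 barcodes. After filters and doublet removal, 5159 METH and 6509 saline nuclei were kept, of which 9.96% and 4.90% lay in clusters left without a class. Classes are "X-like", named from marker genes, and are written here without that suffix. Clusters were built without any Kcn gene. Orbitofrontal cortex was represented by excitatory neurons of 6 named layer types and 1 unnamed cluster led by Pld5 and Rorb, 5 interneuron subclasses, glia and vascular cells. No cluster met the markers of layer 6b. Excitatory nuclei were deeper in METH (median 9406.5 UMIs) than in saline (6415), and so were inhibitory nuclei (6104 against 4379).

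Levels are given as CPM, counts per 1000000 UMIs of the class in a library, with exact Poisson 95% intervals that cover counting error only. They were compared between classes for 1 gene and never between genes, since nuclear 3' counts depend on gene length and priming sites. Among the 7 classes large enough to compare (50 or more nuclei per library), 50 of the 70 members had the same highest class in both libraries. In 22 the highest class stood apart, its interval lying above that of every other compared class in both libraries. These were 11 members highest in excitatory neurons, 6 in inhibitory neurons, 2 in oligodendrocytes, 2 in oligodendrocyte precursors and 1 in astrocytes.

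Fast voltage-gated channels separated the neuron classes. Kcnc2, the Kv3.2 subunit of rapidly repolarizing channels, was at 2832 CPM (2796 to 2868) in METH inhibitory neurons and 3022 CPM (2978 to 3067) in saline ones. Its next class was 9.34-fold lower in METH and 10.3-fold lower in saline, and its excitatory levels were 298 and 295 CPM. Kcnc1, the Kv3.1 subunit, was at 640 and 590 CPM in inhibitory neurons against 118 and 113 CPM in excitatory neurons. Kcns3, a silent subunit that modifies Kv2 channels, was at 153 and 167 CPM in inhibitory neurons and at 3.03 and 4.55 CPM in excitatory neurons. In both libraries these 3 genes were inhibitory-high by at least 4.94-fold over the next compared class. Kcnd3, the Kv4.3 subunit of A-type current, was level across neurons and precursors, at 348 and 309 CPM in excitatory, 373 and 340 CPM in inhibitory neurons and 357 and 320 CPM in precursors. The auxiliary genes Kcnab1 and Kcnmb2 joined the inhibitory group. Kcnab1, a Kv beta subunit that speeds inactivation, was at 1209 and 1214 CPM in inhibitory and 584 and 659 CPM in excitatory neurons. Kcnmb2, a beta subunit that inactivates BK channels, was at 49.4 and 39.6 CPM in inhibitory and 1.38 and 1.22 CPM in excitatory neurons.

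Excitatory neurons held the highest level of channels that respond slowly or to activity. Kcnq5, an M-current subunit, was at 864 and 835 CPM there and 338 and 327 CPM in inhibitory neurons. Kcnq3, an M-current subunit that pairs with other Kv7 subunits, was at 1417 and 1602 CPM in excitatory neurons, but its next levels were close: 1129 and 1118 CPM in inhibitory neurons and 1198 and 1064 CPM in oligodendrocytes. Kcnma1, the pore of BK channels, was at 2204 and 2343 CPM in excitatory neurons and 1113 and 1177 CPM in inhibitory neurons. It was also at 1011 and 1037 CPM in astrocytes. Kcnt2, a sodium-activated channel, was at 690 and 661 CPM in excitatory and 383 and 349 CPM in inhibitory neurons. Kcnh1, Kcnh5 and Kcnh7, of the eag and erg group, Kcnj6 (a G-protein-gated rectifier), Kcnip4 (a KChIP) and Kcnab2 (a Kv beta subunit) were also among the 11 excitatory-high members.

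Glia were the highest class for some members. Kcna6, a Kv1 subunit, was at 325 CPM (283 to 371) in METH oligodendrocytes and 344 CPM (300 to 392) in saline ones, and Kcna1, the Kv1.1 subunit, at 198 and 209 CPM there. Their neuronal levels were 77.1 to 89.6 CPM for Kcna6 and 32.9 to 52.7 CPM for Kcna1. Kcna2, which forms axonal channels with Kcna1, did not follow them: it was at 5.88 and 24.8 CPM in oligodendrocytes and 69.5 and 91.3 CPM in inhibitory neurons. Kcnh8, an elk channel, was at 303 CPM (248 to 367) in METH and 288 CPM (237 to 347) in saline oligodendrocyte precursors, 22.9-fold and 30.5-fold above the next compared class, and at 81.5 and 109 CPM in the 38 and 34 committed precursors. Kcnip3, a KChIP also known as a calcium-dependent transcription factor, was at 217 and 148 CPM in oligodendrocyte precursors and 109 and 100 CPM in excitatory neurons. Kcnip1, another KChIP, was nearly as high in precursors (829 and 777 CPM) as in inhibitory neurons (945 and 941 CPM) and at 37.8 and 29.0 CPM in excitatory neurons. Kcnn2, an SK channel opened by calcium, was at 197 and 200 CPM in astrocytes against 81.0 and 78.3 CPM in inhibitory neurons. Kcnn3, a related SK channel, was at 71.2 and 88.9 CPM in astrocytes, and its interval overlapped that of precursors. Kcnj10 (Kir4.1), the main potassium-uptake channel of glia, was at 63.4 and 67.1 CPM in astrocytes, 82.3 and 58.8 CPM in oligodendrocytes and 68.6 and 31.2 CPM in precursors, with overlapping intervals in both libraries, and at 0.676 to 0.824 CPM in neurons.

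**Figure D1:**
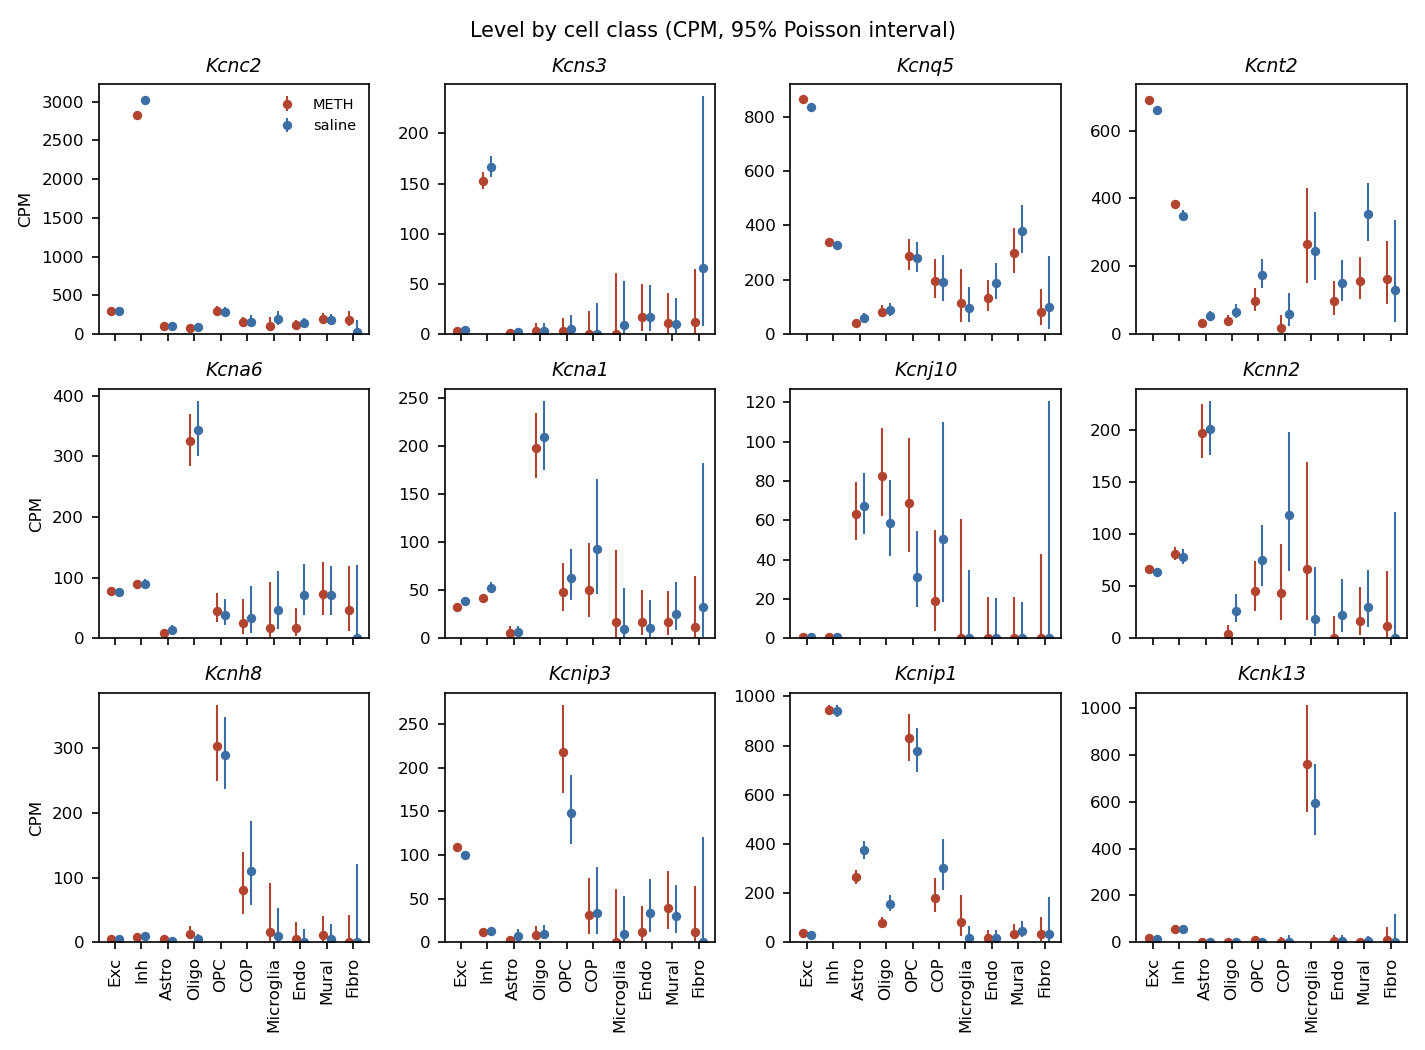
Level of 12 potassium channel genes in 10 cell classes (CPM, vertical axis, with its own range for each gene); points are the METH and saline libraries and bars are exact Poisson 95% intervals, with 1 library per group. Inhibitory neurons stood highest for Kcnc2 and Kcns3, oligodendrocytes for Kcna6 and Kcna1, precursors for Kcnh8 and microglia for Kcnk13. The METH and saline points lay close together for Kcnc2 in inhibitory neurons and for Kcna6 and Kcna1 in oligodendrocytes. They lay further apart for Kcnj10 and Kcnip3 in precursors.

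Microglia, at 38 METH and 76 saline nuclei too few to be compared between libraries, held 3 members chosen after their values were seen. Kcnk13, a halothane-inhibited K2P channel known in microglia, had 46 and 63 UMIs there, 760 CPM (556 to 1013) in METH and 596 CPM (458 to 763) in saline. The 7 compared classes were at or below 55.8 CPM. Kcnj5, a G-protein-gated rectifier, had 8 and 17 UMIs in microglia, 132 and 161 CPM, and at most 5.04 CPM in the compared classes. Its 126 UMIs over all barcodes put it near the minimum. Kcng2, a silent subunit, was at 182 CPM (90.7 to 325) and 85.2 CPM (38.9 to 162) in microglia and at 19.8 CPM or less in the compared classes. Excitatory markers in these microglia stood at 13.5% and 19.3% of their level in excitatory neurons.

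Endothelial and mural nuclei were not the clear highest class of any member. Endothelial nuclei measured 0 members and mural nuclei 5 (Kcnab1, Kcnj3, Kcnma1, Kcnq3 and Kcnq5). Mural Kcnma1, at 901 and 1039 CPM, is a channel that relaxes vessel muscle, but the 6 excitatory markers summed to 1154 and 1619 CPM in mural nuclei, 39.4% and 54.9% of their excitatory level, and the part of such RNA in the 5 values was not tested. Abcc9, the regulatory subunit that pairs with Kcnj8 in pericytes, was at 1441 and 1392 CPM in mural nuclei. Kcnj8 itself fell below the minimum of UMIs.

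Excitatory types were compared with each other next. Of the 70 members, 43 had the same highest layer type in both libraries and 16 stood apart there. Layer 5/6 near-projecting (NP) neurons, deep cells with local axons, held 3 of them. Kcnip1 was at 429 CPM (397 to 463) in METH and 547 CPM (500 to 596) in saline NP neurons and at 26.4 CPM or less in every other layer type, so its excitatory level came largely from this type. Kcnt2 was at 1727 and 1768 CPM in NP neurons and at most 824 CPM elsewhere, and Kcnab1 at 1902 and 2016 CPM. Kcnab1 was at 31.0 and 42.7 CPM in layer 6 corticothalamic (CT) neurons and 55.3 and 73.6 CPM in layer 2/3 neurons, so its highest type lay 61.4-fold above its lowest in METH and 47.2-fold in saline. NP neurons were in turn the lowest in Kcnd3, at 18.0 and 16.9 CPM against 179 CPM or more in the other types. The KChIP Kcnip1 and the Kv4 subunit Kcnd3 were thus at opposite ends in the same cells.

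Layer 5 extratelencephalic (ET) neurons, which project below the cortex, were highest for Kcng1 (82.2 and 79.5 CPM) and Kcng2 (64.5 and 56.2 CPM), both silent subunits. They were also highest for Kcnn2, at 179 and 183 CPM, and low in Kcnc2, at 54.8 and 45.9 CPM. Kcnc2 was at 420 and 436 CPM in layer 2/3, 448 and 434 CPM in layer 4/5 and 425 and 395 CPM in deep intratelencephalic (IT) neurons. Layer 2/3 IT neurons were highest for Kcnd3 (464 and 413 CPM), Kcng3 (41.6 and 44.3 CPM), a silent subunit, and Kcnk13 (53.3 and 51.1 CPM). Layer 6 CT neurons were highest for Kcna1, at 73.2 and 90.3 CPM. Layer 4/5 IT neurons were highest for Kcnq3 (2407 and 2548 CPM) and Kcnma1 (2702 and 2751 CPM), by 1.17-fold and 1.07-fold at the smaller of the 2 library ratios.

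The unnamed excitatory cluster was highest for Kcnh5, an eag channel, at 1433 and 1559 CPM. Kcnh5 was at 911 and 1001 CPM in layer 4/5 IT neurons, 403 and 362 CPM in deep IT neurons, 187 and 217 CPM in layer 2/3 and 72.2 and 52.4 CPM in ET neurons. Kcnh7, an erg channel (537 and 499 CPM), and Kcnj3 (800 and 948 CPM) were also highest in this cluster, with narrower gaps. The cluster made up 183 of 2148 METH and 521 of 3497 saline excitatory nuclei.

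**Figure D2:**
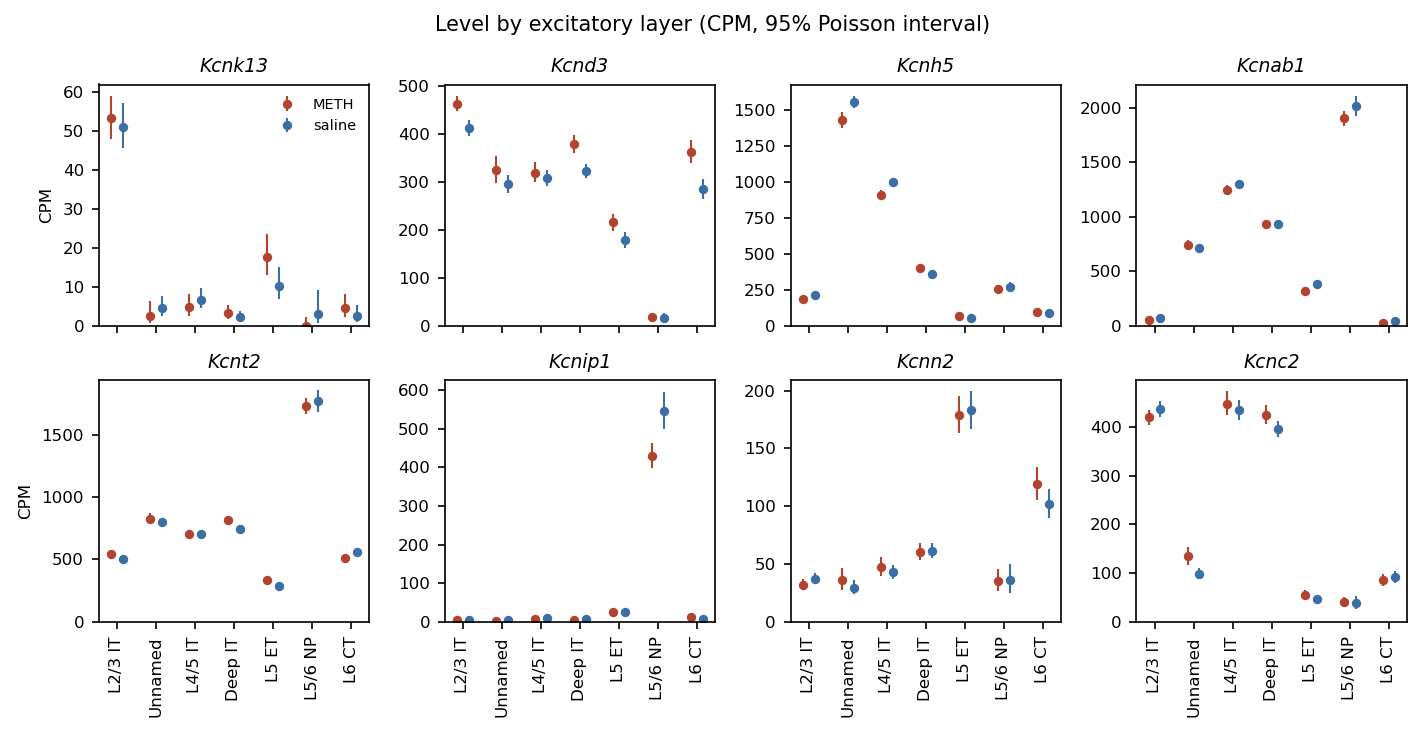
Level of 8 members in 7 excitatory types (CPM, vertical axis, with its own range for each gene); points are the METH and saline libraries and bars are exact Poisson 95% intervals. Kcnip1, Kcnt2 and Kcnab1 peaked in layer 5/6 NP neurons while Kcnd3 was lowest there, and Kcnh5 peaked in the unnamed cluster.

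Interneuron subclasses showed 14 members with a highest subclass that stood apart in both libraries, and 46 of 70 with the same highest subclass. Pvalb interneurons, the fast-spiking cells, held 8 of the 14: Kcnc1, Kcnc2, Kcns3, Kcna2, Kcnh7, Kcnk1, Kcnma1 and Kcnq3. Kcnc2 was at 4560 and 4880 CPM in Pvalb, 2802 and 2839 CPM in Sst, 1134 and 1177 CPM in Vip, 914 and 1010 CPM in Lamp5 and 523 and 473 CPM in Sncg interneurons. The order was the same in both libraries. Kcns3 covered a wider range, from 273 and 286 CPM in Pvalb through 172 and 179 CPM in Lamp5 and 128 and 133 CPM in Sst to 4.53 and 2.97 CPM in Vip interneurons. Kcnc1 ordered them differently, at 983 and 909 CPM in Pvalb, 606 and 640 CPM in Lamp5, 498 and 410 CPM in Vip and 350 and 293 CPM in Sst interneurons. Kcnk1 (TWIK1, a weak leak channel) was at 70.0 and 66.8 CPM in Pvalb interneurons and at 35.1 and 37.1 CPM in the next subclass.

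The other subclasses were each highest for fewer members. Kcnt2 was at 1407 and 1173 CPM in Vip interneurons, which inhibit other interneurons, and at 57.5 and 60.9 CPM in Pvalb interneurons. Sncg interneurons, which carry cholecystokinin, were highest for Kcnq5 (1465 and 1548 CPM) and Kcnip1 (1625 and 1956 CPM). Kcnq5 was lowest in Sst interneurons, at 80.5 and 96.4 CPM. Sst interneurons, which target dendrites, were highest for the K2P channels Kcnk2 (TREK1, 325 and 266 CPM) and Kcnk10 (TREK2, 52.4 and 49.1 CPM). The sum over inhibitory neurons hid this for Kcnk2, which stood at 151 and 143 CPM there against 169 and 199 CPM in excitatory neurons. Lamp5 interneurons were highest for Kcnn2, at 306 and 285 CPM against 15.4 and 15.0 CPM in Sst interneurons.

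**Figure D3:**
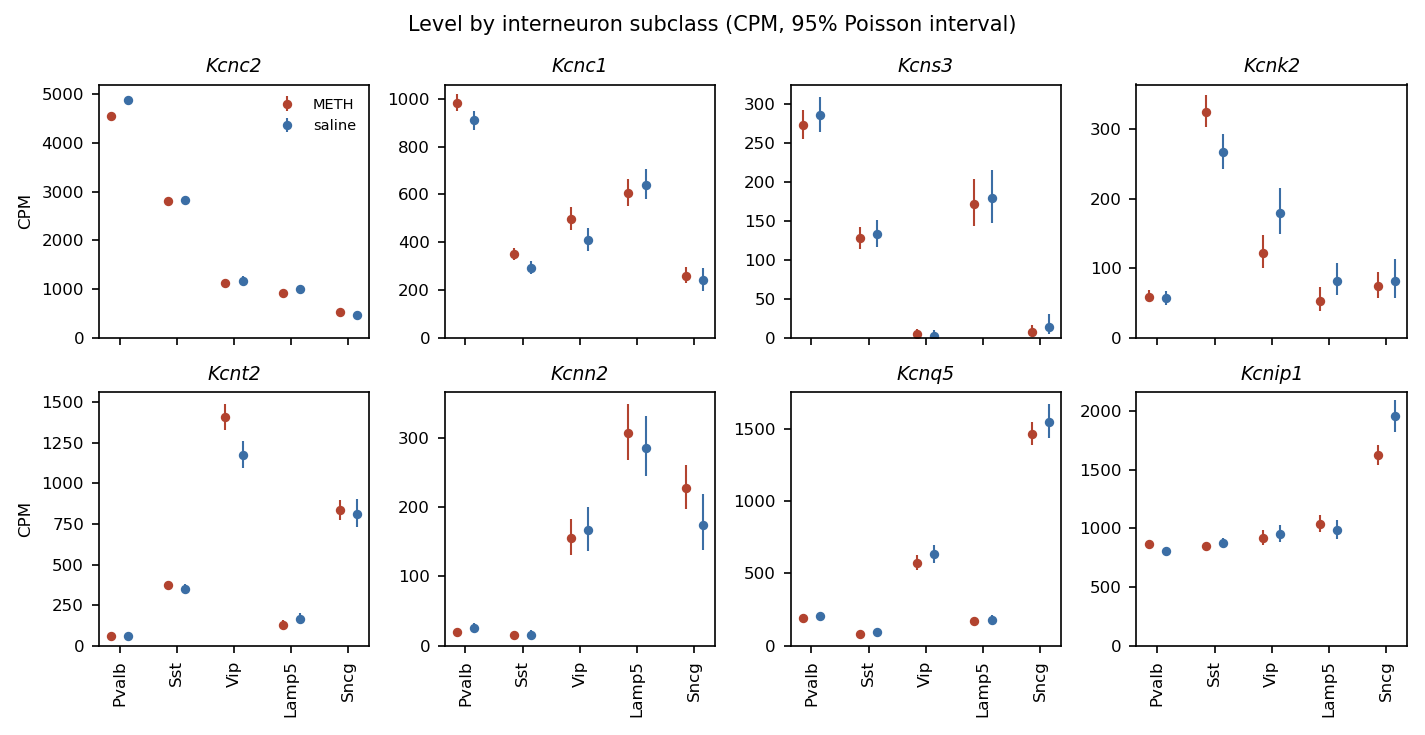
Level of 8 members in 5 interneuron subclasses (CPM, vertical axis, with its own range for each gene); points are the METH and saline libraries and bars are exact Poisson 95% intervals. Kcnc2, Kcnc1 and Kcns3 were highest in Pvalb interneurons, Kcnk2 in Sst, Kcnt2 in Vip, Kcnn2 in Lamp5, and Kcnq5 and Kcnip1 in Sncg interneurons.

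METH was then compared with saline within each type, as the log2 ratio of METH over saline CPM with its exact conditional 95% binomial interval. Genes counted as measured in a type reached 100 UMIs in total and 20 CPM in one library or the other. Calls needed a difference of 1.5-fold that held for the whole interval. Of the 70 members, 49 were measured in at least 1 type (47 in a class, 43 in a layer type, 39 in an interneuron subclass) and 21 in none. Calls were made for 1 of 505 measured pairs of member and type. The 21 members too sparse to be compared anywhere were Kcna3, Kcna4, Kcnab3, Kcnc4, Kcnd1, Kcne2, Kcne3, Kcnf1, Kcng4, Kcnh6, Kcnip2, Kcnj4, Kcnj5, Kcnj11, Kcnj13, Kcnk18, Kcnn1, Kcnrg, Kcns1, Kcns2 and Kcnu1.

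Neurons gave no call. In excitatory neurons 0 of 41 measured members were called, where 0.308% of the 7141 genes measured there were, and in inhibitory neurons 0 of 37, where the share over all genes was 0.291%. The members' median log2 ratio was 0.01 in excitatory neurons, as against -0.01 over all genes, and was below 0.01 in size in inhibitory neurons. Without the sign, the median was 0.14 for members and 0.08 for all genes in excitatory neurons, and 0.12 and 0.10 in inhibitory neurons. Intervals lay above 0 for 14 and below 0 for 14 of the 41 excitatory members, against 17.6% and 23.5% of all genes. In layer types the unsigned median went either way, at 0.09 and 0.13 in layer 4/5 and 0.22 and 0.15 in CT neurons. Layer types had 0 calls each. Measured members numbered 39 in layer 2/3 (0.327% of all genes called), 38 in layer 4/5 (0.296%), 37 in deep IT (0.227%), 38 in ET (0.313%), 26 in NP (0.14%), 38 in CT (0.363%) and 35 in the unnamed cluster (0.102%). Interneuron subclasses also had 0 calls, among 38 members in Pvalb (0.176%), 31 in Sst (0.364%), 22 in Vip (0.117%), 22 in Lamp5 (0.503%) and 22 in Sncg (0.107%). All these background shares lie under 1%, so the members' counts of 0 are near the share over all genes.

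Differences below the size rule could be large in counts and small in fold. Kcnj3 (GIRK1), the rectifier that G-protein-coupled receptors open, was lower in METH in all 7 excitatory types with every interval below 0. It was at 646 CPM in METH and 767 CPM in saline layer 2/3 neurons, a log2 ratio of -0.25 (-0.31 to -0.19). The median ratio over the 7 types was -0.25, from -0.41 (-0.55 to -0.28) in NP neurons, at 618 and 824 CPM, to -0.21 in ET neurons. Of the 25 members measured in all 7 types, 1 (Kcnj3) was lower in this way and 0 were higher, while 0.85% of the 4705 genes measured in all 7 types were lower in this way and 0.213% higher. In interneurons Kcnj3 lay below 0 in 4 of 5 subclasses and at 0.44 (0.21 to 0.67) in Lamp5 interneurons, at 550 and 405 CPM. With every nucleus thinned to 1000 UMIs, the ratio of Kcnj3 was 0.08 (-0.27 to 0.44) in ET neurons. Over all settings tried, thinned and matched included, the highest Kcnj3 ratio stayed below 0 in layer 2/3 (-0.19), NP (-0.37), CT (-0.21) and unnamed excitatory neurons (-0.18). Layer 4/5 and deep IT neurons were not followed across settings. Excitatory nuclei were deeper in METH, and the part of depth in these ratios was not tested beyond the thinned and matched values.

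Kcnab2 lay above 0 in 7 of 7 excitatory types and in 4 of 5 interneuron subclasses. Its highest ratio was 0.50 (0.34 to 0.66) in CT neurons, at 332 CPM in METH and 234 CPM in saline. Kcnd3 lay above 0 in the 6 types where it was measured, 4 with intervals above 0, up to 0.35 in CT neurons. Kcnv1, a silent subunit that slows Kv2 channels, lay below 0 in 5 of 5 types, 4 with intervals below 0. In CT neurons it had 46 UMIs in METH and 99 in saline, 19.2 and 39.9 CPM, a ratio of -1.05 (-1.59 to -0.53) whose nearer bound fell short of 1.5-fold. Kcnn3 in CT neurons was at 47.7 and 25.8 CPM, a ratio of 0.89 (0.43 to 1.35), the highest of any member in an excitatory type. In interneurons the extremes were Kcnh5 in Vip interneurons, with 56 and 77 UMIs and a ratio of -0.85 (-1.37 to -0.33), and Kcnab1 in Vip interneurons, at 718 and 480 CPM and 0.58 (0.39 to 0.78).

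Ratios over a whole class also moved with its makeup. Kcnh5 in all excitatory neurons was at 393 CPM in METH and 526 CPM in saline, a ratio of -0.42 (-0.46 to -0.38), yet within the 7 types it ran from -0.21 in layer 2/3 to 0.46 in ET neurons. With the types weighted alike in both libraries the ratio was -0.07 (-0.11 to -0.03). Its highest type, the unnamed cluster, held a smaller share of the METH nuclei. Kcnip1 in all excitatory neurons was at 0.38 (0.24 to 0.53) but at -0.35 (-0.52 to -0.18) in NP neurons, the type that carries it, and with the types weighted alike it was -0.30 (-0.45 to -0.16), on the other side of 0. NP neurons were 237 of 2148 METH and 211 of 3497 saline excitatory nuclei. For Kcnj3 the pooled ratio was -0.25 both ways.

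Astrocytes held the 1 member called, of 13 measured, where 0.772% of 4663 genes were called. Kcnj3 had 36 UMIs in METH and 98 in saline astrocytes, 30.9 CPM (21.6 to 42.7) and 85.4 CPM (69.3 to 104), a ratio of -1.47 (-2.06 to -0.90). The call was lost without doublet removal, at -0.68, at a minimum of 200 genes, at -0.71, with nuclei thinned to 1000 UMIs, at -0.78, matched on UMIs, at -1.06, or weighted equally, at -1.18. Its level in astrocytes was far below the 619 and 738 CPM of excitatory neurons. All 6 excitatory markers were detected in astrocytes and summed to 227 CPM in METH and 355 CPM in saline, 7.76% and 12% of their excitatory level. They moved in the same direction, with a ratio of -0.64 (-0.87 to -0.42). The oligodendrocyte markers summed to 180 and 355 CPM in astrocytes, a ratio of -0.98 (-1.23 to -0.74), and the microglia markers to 37.7 and 73.2 CPM, at -0.96. Inhibitory markers were at -0.27 and precursor markers at -0.22, while mural and committed precursor markers lay above 0, at 0.11 and 0.01. Leaving out astrocytes with a UMI of the excitatory marker Slc17a7 kept the call, at 31.2 and 76.4 CPM and a ratio of -1.29 (-1.93 to -0.68), and leaving out those with a UMI of Nrgn ended it, at -1.21 (-1.89 to -0.56). In the 265 and 304 astrocytes without a UMI of Slc17a7, Camk2a, Neurod6, Nrgn or Tbr1, Kcnj3 had 17 and 44 UMIs. These were too few to count as measured, and the ratio was -1.53 (-2.43 to -0.69). Kcnq3 was called in these nuclei, at -1.41 (-1.76 to -1.08). Kcnq3 was also high in oligodendrocytes, as given above. Oligodendrocyte markers were not used to leave out nuclei, and the part of oligodendrocyte RNA in this value was not tested. Over all saline astrocytes, a single nucleus held 15.3% of the Kcnj3 UMIs. Intervals lay below 0 for 5 of the 13 members, against 12.1% of all genes measured in astrocytes: Kcnj3, Kcnab1 at -0.65, Kcnq5 at -0.63, Kcnq3 at -0.59 and Kcnip1 at -0.50. Kcnn2, the 1 member whose highest class was astrocytes beyond its intervals, was at -0.02 with 230 UMIs in each library, Kcnj10 was at -0.08 and Kcnma1 at -0.04. Over the 13 members the median was -0.32, against -0.07 over all genes measured in astrocytes.

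In the other classes 0 members were called, among 10 in oligodendrocytes (0.853% of all genes called), 13 in oligodendrocyte precursors (0.0618%), 5 in mural nuclei (1.46%) and 0 measured in endothelial nuclei (2.84%). Kcnip1 came nearest in oligodendrocytes, with 53 and 102 UMIs, 77.9 and 158 CPM, and a ratio of -1.02 (-1.53 to -0.53). There it was called without doublet removal, at a minimum of 1000 genes, matched on UMIs or with nuclei weighted equally. In these oligodendrocytes the precursor markers summed to 137 and 211 CPM, a ratio of -0.62 (-1.02 to -0.23), the excitatory markers to 225 and 341 CPM, a ratio of -0.60 (-0.91 to -0.29), and the inhibitory markers to 863 and 878 CPM, a ratio of -0.02 (-0.19 to 0.14). Their part in the Kcnip1 value was not tested. The channels that stood highest in oligodendrocytes had ratios near 0, Kcna6 with 221 and 222 UMIs and Kcna1 with 135 in each library, both at -0.08. In precursors Kcnt2 had 34 and 67 UMIs and a ratio of -0.84 (-1.48 to -0.22), Kcnip3 was at 0.55 (0.04 to 1.08), and Kcnh8, with 106 and 111 UMIs, was at 0.07 (-0.33 to 0.47). Beside the Kcnt2 value, the excitatory markers in precursors summed to 232 and 353 CPM, a ratio of -0.61 (-1.02 to -0.20), the oligodendrocyte markers to 197 and 439 CPM, a ratio of -1.15, the microglia markers to 17.2 and 80.5 CPM, a ratio of -2.23, and the inhibitory markers to 1109 and 1130 CPM, a ratio of -0.03. Their part in it was not tested.

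**Figure D4:**
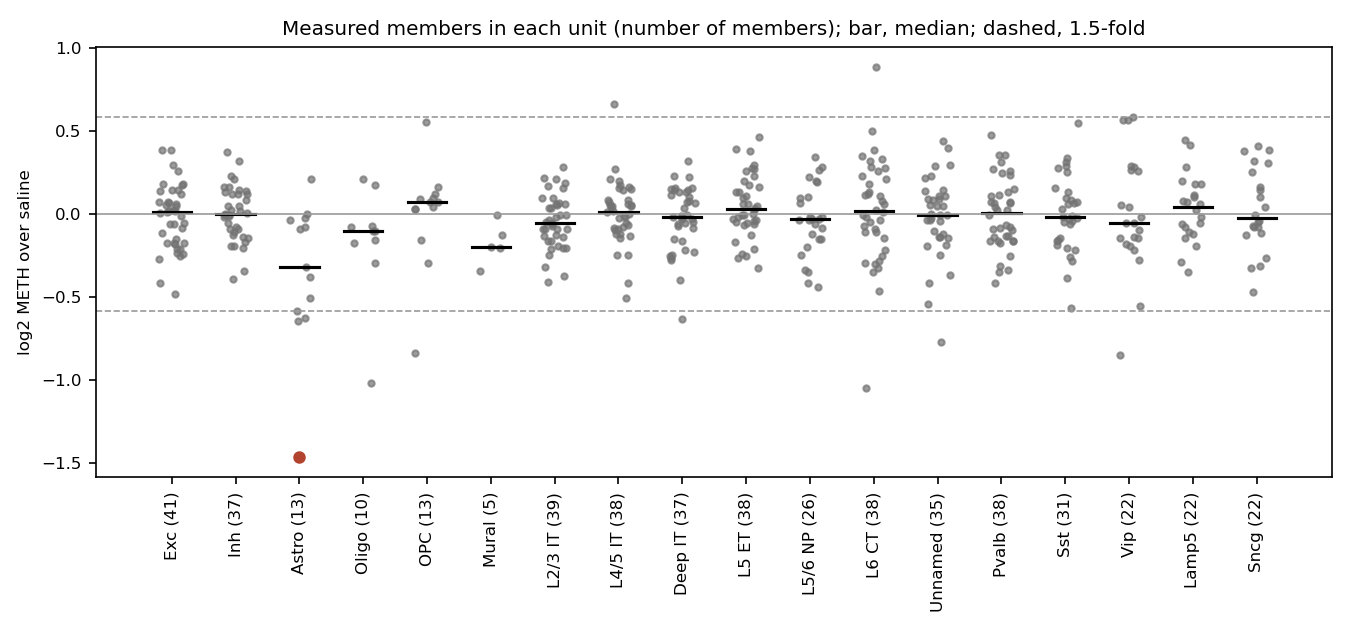
Log2 ratio of METH over saline CPM (vertical axis) for each measured member in 18 classes, layer types and interneuron subclasses (horizontal axis, number of members in brackets); black bars are medians, dashed lines mark 1.5-fold and the red point is the called member. Kcnj3 in astrocytes, at -1.47, is the 1 called value, and the points of the neuronal types lie mostly between the dashed lines.

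Partner genes of potassium channels, a list of 24 with 23 in the gene tables, had 2 calls, both lower in METH astrocytes. There 10 were measured and 10 lay below 0, while 0.772% of the 4663 genes measured in astrocytes were called. The median over all these genes was itself below 0, at -0.07, and their share below 0 was not counted. Ank3, the ankyrin that anchors Kv7 channels at the axon initial segment, had 65 and 134 UMIs and a ratio of -1.07. In oligodendrocytes Ank3 lay the other way, with 1758 and 1249 UMIs and a ratio of 0.42 (0.31 to 0.52), short of a call. Neither partner call held under TMM or DESeq2 scaling, without doublet removal, at a minimum of 200 or 1000 genes, at Leiden resolution 2, with nuclei thinned, matched on UMIs or weighted equally, or without the highest nucleus. The excitatory, oligodendrocyte and microglia markers moved in the same direction in these astrocytes, as given above. With astrocytes holding a UMI of Slc17a7, of Nrgn or of any of the 5 excitatory markers left out, 0 partners were called. The part of excitatory RNA in both partner values was not tested beyond this, and that of oligodendrocyte or microglia RNA was not tested. In excitatory neurons Ank3 was at 1218 and 1199 CPM. Dpp10, a subunit of Kv4 channels, was at 318 and 365 CPM in excitatory neurons, a ratio of -0.20. Partner calls numbered 0 among 15 measured in excitatory neurons (0.308% of all genes called) and 0 among 18 in inhibitory neurons (0.291%).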

How the data were processed

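Single-nucleus 3' RNA libraries, 1 per group, were read from the deposited count matrices, which hold UMI counts per gene and barcode. The authors' counts were made with Cell Ranger 7.0.0 per the submitters' processing notes. Those notes name a human build, hg38, while the gene identifiers are rat Ensembl identifiers, so the rat build and annotation behind them are not known here.

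Nuclei under 500 genes or over 5% mitochondrial UMIs were dropped, as were Scrublet doublets. Nuclei were clustered in scanpy 1.11.5 (2000 variable genes without Kcn genes, 30 components, 15 neighbours, Leiden resolution 1) and neurons again at resolution 0.5. Clusters were named from marker lists with thresholds chosen after marker levels were seen, and mixed, shallow or single-library clusters stayed unnamed. Raw UMIs were summed per library and type, and types were compared from 50 nuclei per library upward.

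The members and lists were chosen with earlier results of these data known. Members were named by ratio to the next type, by interval bound nearest to 0, when called, or from a list of 16 symbols; others given here, among them Kcnj5 and Kcng2 in microglia, were chosen after their values were seen. Intervals cover counting error only. Some members, partners and markers are not reported here.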

Additional observations from a re-analysis of the deposited data

How the results depend on the processing

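No paired analysis was possible because each group holds 1 library. Members called in classes numbered 1, and 3 without doublet removal, 2 at a minimum of 1000 genes, 2 with Kcn genes used for clustering, 2 with nuclei matched on UMIs, 0 with nuclei thinned to 1000 UMIs, 0 without astrocytes holding a UMI of Nrgn, and 6 where an interval without 0 and a 1.5-fold ratio sufficed. The called members changed too. Kcnip1 in oligodendrocytes was called without doublet removal, at 1000 genes, matched or with equal weights. Kcnt2 in mural nuclei was called without doublet removal, at 200 genes or with Kcn genes used for clustering. In layer types the 0 calls became 1 without doublet removal, 2 at a minimum of 200 genes, 1 at 1000 genes, 1 at Leiden resolution 2, 1 when matched and 5 under the interval rule, and in interneuron subclasses the 0 became 1 under the interval rule. The 2 partner calls became 0 without doublet removal, at 200 or 1000 genes, at resolution 2, under TMM or DESeq2 scaling, thinned, matched, with nuclei weighted equally, without the highest nucleus and without astrocytes holding a UMI of Slc17a7, of Nrgn or of any of 5 excitatory markers, and 5 under the interval rule. Members with a clear highest class ran from 16 (thinned) to 33 (1000 genes), against 22. Kcnj3 in astrocytes was not called without doublet removal (-0.68), at 200 genes (-0.71), thinned (-0.78), matched (-1.06) or with equal weights (-1.18). The cause of these changes was not tested. Over 72 named pairs of gene and type, 1038 of 1132 values kept their side of the rule and stayed within the interval or past the rule, 70 moved, 17 came past the rule and 7 fell short of it. Part of this was fixed in advance. A minimum of 30 UMIs and the interval rule left every ratio as it was, and the interval rule itself brought some values past. Weighting types alike changed only the ratios of all excitatory and all inhibitory neurons. The count of values kept is therefore no measure of stability. TMM and DESeq2 scaling shifted all oligodendrocyte ratios by 0.18 and 0.15 (log2) and no other type by over 0.1. Weighting types alike and leaving out such astrocytes were chosen after seeing the data. Counts limit what small classes can show.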

Other observations

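Nuclei left without a class held members too. A cluster led by Trdn, Pcbp3, Meis1 and Lgr5, nearest to inhibitory neurons by its markers, counted 142 METH nuclei and 1 saline nucleus, so it entered no comparison. In its METH nuclei Kcnj3 had 696 UMIs, 1244 CPM, Kcnc2 425 UMIs, 760 CPM, and Kcnk13 85 UMIs, 152 CPM. Kcns3, which marks Pvalb, Lamp5 and Sst interneurons above, had 1 UMI there. Another unnamed cluster, of 33 METH and 3 saline nuclei, held 52 and 6 UMIs of Kcnh8, the channel that was highest in oligodendrocyte precursors among the compared classes, and 25 and 3 UMIs of Kcnq5. These clusters were singled out after their values were seen.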
